A study of Homo sapiens with 12 samples.

Results

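This account covers 35 genes of the chaperone and heat shock system, measured by RNA sequencing in 2 human cell lines. They were found by gene symbol among the 60612 genes of the HCCLM3 table and the 32507 genes of the LX2 table, and where rows shared a symbol the row with most counts was taken. All 35 were present in both tables and passed the filter on low counts in both lines. They fall into 8 HSP70 genes, 10 genes of HSP90 and its co-chaperones, 3 small heat shock protein (HSP) genes, 5 HSP40 genes, 7 chaperonin genes and 2 heat shock factors. HSPA9, HSPD1 and HSPE1 encode mitochondrial proteins, and the products of most others work in the cytosol and nucleus.

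HCCLM3, labelled as hepatoma cells, and LX2, labelled as hepatic stellate cells, were each kept in a tumour chip device either with the other line or alone. This gave 4 groups of 3 libraries, named here HCCLM3 with LX2, HCCLM3 alone, LX2 with HCCLM3 and LX2 alone, and genotype was WT in every library. The labels give no time in culture and do not say whether the replicates were separate cultures, so the p-values below speak of spread among libraries that may be technical repeats. The sources used here do not give how the lines were kept apart for RNA extraction, and in bulk RNA fewer cells of a type and less RNA per cell cannot be told apart.

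HSP70 proteins bind exposed hydrophobic stretches of unfolded proteins in a cycle driven by ATP, with HSP40 (J domain) proteins delivering clients and exchange factors releasing them. Clients such as kinases and steroid receptors pass on to HSP90, while the ring-shaped chaperonins enclose folding proteins and the small HSPs hold aggregating ones without using ATP. Heat shock factors, chiefly HSF1, bind heat shock elements in promoters and drive many of these genes during proteotoxic stress. Tumour cells commonly carry high levels of HSP90, HSP70 and HSPB1.

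The heat shock element is built of inverted nGAAn units, and its letters were looked for in the 250 bases before each RefSeq start (RefSeq promoters, build GRCh38.p14), which were at hand for 31 of the 35 genes and not for CRYAB, FKBP4, HSF1 and ST13. The letters searched were GAANNTTCNNGAA and TTCNNGAANNTTC, which are reverse complements and so cover both strands, and the shorter forms GAANNTTC and TTCNNGAA, which lie within them. Some genes have several RefSeq starts, and a gene was counted when any of its starts had a match. The 3-unit letters stood before 7 of the genes, where 0.557% of all 27305 genes of the table (0.441% of all 35116 promoters) held them. The 2-unit letters stood before 16 of the genes, where 14.0% of all genes (11.6% of all promoters) held them. The stretches around the 3-unit matches are shown because they mark which of the genes described here carry the letters of the element in this window. Each is written 5′ to 3′ on the strand of its gene, with the matching letters in capitals.
HSPA6 (chr1:161524454-161524490, plus strand, 74 to 62 bases before the start): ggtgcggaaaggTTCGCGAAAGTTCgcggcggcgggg
HSPA8 (chr11:123062346-123062374, minus strand, 230 to 218 bases before the start): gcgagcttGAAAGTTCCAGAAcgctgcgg
HSPA8 (chr11:123062171-123062199, minus strand, 55 to 43 bases before the start): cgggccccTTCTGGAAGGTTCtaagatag
HSP90AA1 (chr14:102087112-102087140, minus strand, 88 to 76 bases before the start): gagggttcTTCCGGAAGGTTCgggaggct
HSP90AB1 (chr6:44247766-44247802, plus strand, 165 to 153 bases before the start): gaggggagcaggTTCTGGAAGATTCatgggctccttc
HSP90AB1 (chr6:44247819-44247855, plus strand, 112 to 100 bases before the start): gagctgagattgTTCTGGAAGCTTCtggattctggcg
CHORDC1 (chr11:90223084-90223112, minus strand, 3 overlapping matches 60 to 38 bases before the start): ccgGAAAATTCGCGAAGGTTCCTGAAacg
DNAJB6 (chr7:157336861-157336897, plus strand, 131 to 119 bases before the start): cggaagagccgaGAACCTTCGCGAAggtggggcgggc
HSPD1 (chr2:197500062-197500090, minus strand, 2 overlapping matches 245 to 228 bases before the start): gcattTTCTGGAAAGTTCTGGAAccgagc
HSP90AA1 and HSPD1 have 2 RefSeq starts each and HSP90AB1 has 3, and only 1 start of each gene had the 3-unit letters. A match is a description of letters, not a site shown to be bound, and some of these stretches lie within exons of other transcripts of the same region in GENCODE release 29. The matches of HSPA8, HSP90AA1, HSP90AB1, DNAJB6 and HSPD1 lie inside the deposited span of the gene, downstream of its 5′ end there.

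Depth was 65675929 to 77712308 counts per HCCLM3 library and 61836616 to 69891842 counts per LX2 library. Marker genes set limits on what the groups represent. In HCCLM3 with LX2 the 7 red blood cell markers summed to 95.2 to 137 CPM (counts scaled to the library total), against 0 to 0.0787 CPM in HCCLM3 alone, and all 7 were called higher. The 8 granulocyte markers summed to 10.0 to 13.9 CPM in HCCLM3 with LX2 and to 0 to 0.118 CPM in HCCLM3 alone, with all 7 tested called higher, and 4 of the 6 leukocyte markers tested were called higher too. Of the 6 epithelial markers, the keratins KRT8, KRT18 and KRT19 were called lower and carried most of the list sum of 3744 to 4589 CPM in HCCLM3 with LX2 and 6049 to 6869.5 CPM in HCCLM3 alone. CDH1, EPCAM and CLDN4 were not called, and CDH1 averaged 2.65 ± 0.225 FPKM in HCCLM3 with LX2 and 1.17 ± 0.481 FPKM in HCCLM3 alone. Of the 10 hepatocyte markers, 8 were tested in HCCLM3, and ALB and TF were called higher and none lower. ALB averaged 3.34 ± 0.237 FPKM with LX2 and 0.531 ± 0.134 FPKM alone. HNF4A went the other way without a call, at 1.34 ± 0.694 FPKM with LX2 and 2.62 ± 0.851 FPKM alone. Of 3 endothelial markers tested there, 2 were called lower. The 10 stellate cell and fibroblast markers summed to 68.9 to 141 CPM in HCCLM3 with LX2 and to 85.5 to 115 CPM in HCCLM3 alone, a sum held mostly by LUM and COL6A3. Within that list COL3A1 alone was called, as higher, with 300, 848 and 1011 counts in HCCLM3 with LX2 and 58, 39 and 112 counts in HCCLM3 alone. COL1A1 had 21, 356 and 1448 counts in HCCLM3 with LX2 and 16, 20 and 541 counts in HCCLM3 alone, with no call. COL1A2 had 0, 320 and 853 counts in HCCLM3 with LX2 and 0, 0 and 502 in HCCLM3 alone. In LX2 with HCCLM3 the counts were 86, 60 and 85 for COL3A1, 4, 0 and 0 for COL1A2, and 5152, 5443 and 5881 for COL1A1. The source of these collagen counts in the HCCLM3 libraries was not tested. In LX2 alone, COL1A2, COL6A3 and SPARC of the same list were at 0 in every library, while COL1A1 averaged 2.72, PDGFRB 2.38, ACTA2 1.37 and LUM 1.02 FPKM. In LX2 with HCCLM3, 3 of its 6 tested members were called higher (COL1A1, ACTA2 and COL6A3) and 3 lower (COL3A1, LUM and PDGFRB). COL6A3 had 160, 134 and 153 counts there, and 3583, 4446 and 4232 in HCCLM3 alone. Of the 6 epithelial markers in LX2, 2 were called higher and 2 lower with HCCLM3. KRT19 averaged 0.328 FPKM in LX2 with HCCLM3, 0 in LX2 alone and 207 in HCCLM3 alone. KRT18, at 301 FPKM in HCCLM3 alone, averaged 29.5 FPKM in LX2 with HCCLM3 and 37.6 FPKM in LX2 alone. Whether HCCLM3 transcripts entered the LX2 libraries was not tested. Of the hepatocyte markers, CPS1 averaged 198 ± 10.6 FPKM in LX2 with HCCLM3 and 67.6 ± 0.627 FPKM in LX2 alone, and every other one listed for LX2 lay under 0.1 FPKM on average in both LX2 groups. The part of these shifts in the results below was not tested.

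In both lines most chaperone genes that passed the test were lower in co-culture. A gene is called here when its Benjamini-Hochberg adjusted p is under 0.05 in edgeR's quasi-likelihood test on the raw counts, and changes are log2 folds of co-culture over alone after TMM scaling. In HCCLM3, 1 member rose with LX2, 22 fell and 12 did not pass the test, where 21.7% of all 18045 tested genes were called, 10.1% as higher and 11.6% as lower. The members' median change was -0.39, against 0.033 for all tested genes. In LX2, 2 members rose with HCCLM3, 19 fell and 14 did not pass, where 31.9% of all 19671 tested genes were called, 15.4% as higher and 16.6% as lower. Their median was -0.23, against 0.015 for all tested genes. By range alone, the 3 co-cultured HCCLM3 libraries lay wholly above the 3 grown alone for 1 member (22.1% of all genes) and wholly below for 24 (21% of all genes), on the TMM-scaled scale. In LX2 they lay wholly above for 2 members and wholly below for 23 on that scale, where 24% of all genes did so in each direction. In FPKM, which is not TMM-scaled, 5 members lay wholly above and 22 wholly below in HCCLM3, where 31.7% and 12.5% of all genes did so. In LX2 the FPKM counts were 2 above and 21 below, where 26.1% and 22% of all genes did so.

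The HCCLM3 counts depend on how libraries are scaled. With library totals in place of TMM factors the median of all genes moved to 0.21 in HCCLM3 and the calls shifted to 2977 genes higher and 1039 lower, against 1829 higher and 2095 lower with TMM, so that most calls became higher ones. Under library totals 1 member was called higher and 15 lower. The 7 calls lost there were HSPA1B, STIP1, ST13, BAG3, DNAJA2, DNAJB1 and HSF1, each still negative, with adjusted p-values of 0.0523 to 0.227. FPKM values, the authors' counts divided by gene length and library total, carry the unscaled library totals, so FPKM ratios in HCCLM3 stand above the TMM-scaled folds by about this shift. In LX2 the same change of scaling moved the median of all genes to 0.044 and kept 2 members higher and 19 lower.

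**Figure D1:**
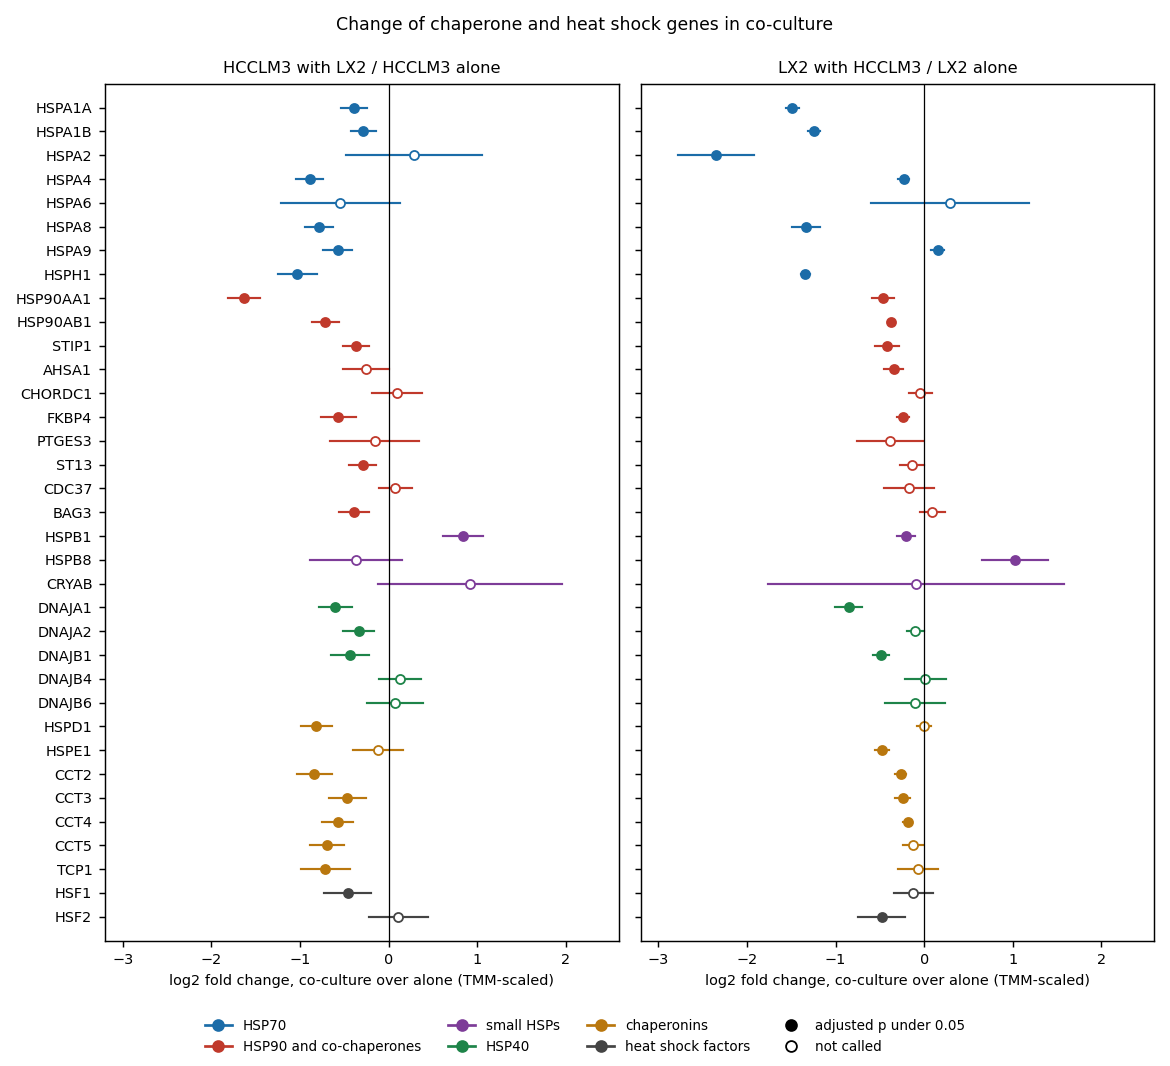
Log2 fold change of each of the 35 genes, co-culture over alone, with its 95% interval from the edgeR fit, in HCCLM3 (left) and LX2 (right). Filled points passed an adjusted p under 0.05 (1 higher and 22 lower in HCCLM3, 2 higher and 19 lower in LX2), open points did not, and colours mark the classes.

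As a share of all counts, the 35 genes together made up 1.45% ± 0.029 of HCCLM3 with LX2 and 1.97% ± 0.023 of HCCLM3 alone (SD, n = 3 each). They made up 1.07% ± 0.025 of LX2 with HCCLM3 and 1.37% ± 0.024 of LX2 alone. By class, the share of HSP90 and its co-chaperones was 0.501% ± 0.011 in HCCLM3 with LX2 and 0.753% ± 0.015 in HCCLM3 alone. The share of the small HSPs moved the other way, at 0.0668% ± 0.0034 in HCCLM3 with LX2 and 0.0359% ± 0.0033 in HCCLM3 alone. In LX2 the HSP70 share was 0.270% ± 0.0056 with HCCLM3 and 0.419% ± 0.011 alone, and the chaperonin share was 0.325% ± 0.012 with HCCLM3 and 0.350% ± 0.0031 alone. The co-culture libraries of HCCLM3 did not overlap those grown alone in any of the 5 main classes, and those of LX2 did not in any either.

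**Figure D2:**
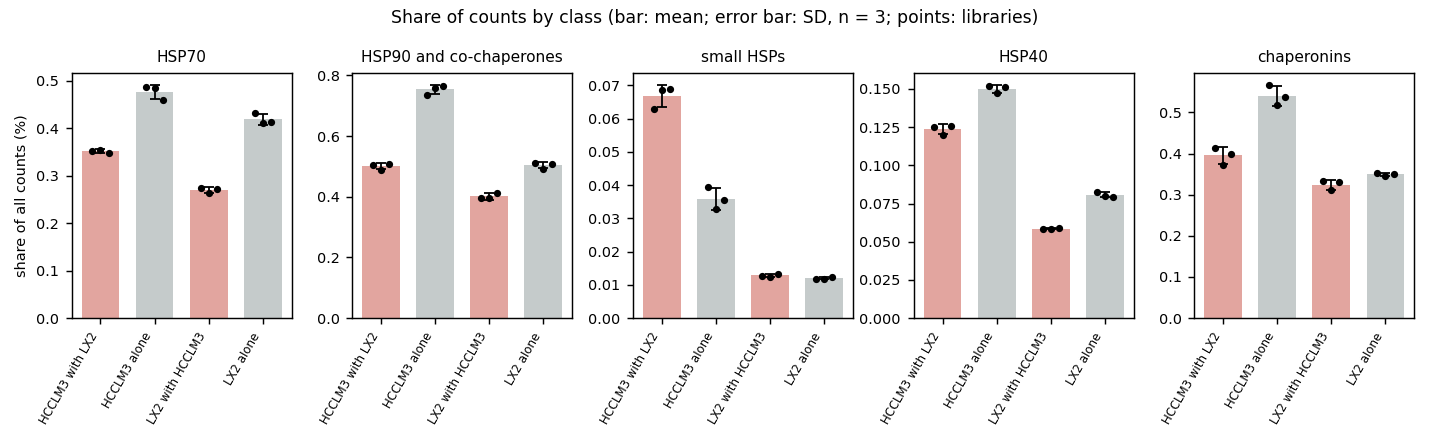
Share of all counts (%) taken by each of 5 classes in the 4 groups. Bars are means, error bars SD (n = 3) and points libraries. The HSP70, HSP90, HSP40 and chaperonin shares were lower in co-culture in both lines, and the small HSP share of HCCLM3 was 0.0668% with LX2 and 0.0359% alone.

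Of the 8 HSP70 genes, 6 fell in HCCLM3 with LX2 and 2 did not pass, with a median of -0.56. In LX2 with HCCLM3, 6 fell, 1 rose and 1 did not pass, with a median of -1.29. HSPA8 (chr11:123057489-123063230, minus strand), the constitutive cytosolic HSP70, stood at 237, 234 and 231 FPKM in HCCLM3 with LX2, against 370.0, 364 and 342 FPKM in HCCLM3 alone. Its change was -0.78 ± 0.0658 (SE, edgeR adjusted p = 0.000954). In LX2 it stood at 121, 102 and 118 FPKM in LX2 with HCCLM3, against 292, 273 and 275 FPKM in LX2 alone, a change of -1.33 ± 0.0655 (SE, edgeR adjusted p = 3.2e-05), or 2.51-fold lower. The libraries did not overlap in either line, and the fall was larger in LX2, with a difference between the changes (HCCLM3 minus LX2) of 0.52 (adjusted p = 0.00283).

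HSPA1A (chr6:31815543-31817946, plus strand) and HSPA1B (chr6:31827738-31830254, plus strand) encode the heat-inducible HSP70 and neighbour each other on chromosome 6. Their transcripts share an identical run of 1715 bases, so reads cannot be assigned to one of them with certainty, and neither held the 3-unit heat shock letters in the window searched. HSPA1A stood at 248, 264 and 244 FPKM in HCCLM3 with LX2, against 294, 300.5 and 287 FPKM in HCCLM3 alone, a change of -0.39 ± 0.0604 (SE, edgeR adjusted p = 0.00657). The LX2 values were 33.8, 33.7 and 34.95 FPKM in LX2 with HCCLM3, against 95.6, 93.2 and 93.1 FPKM in LX2 alone, a change of -1.49 ± 0.0307 (SE, edgeR adjusted p = 1.11e-06). HSPA1A was therefore 2.81-fold lower in LX2 with HCCLM3 than in LX2 alone, and 1.31-fold lower in HCCLM3 with LX2 than in HCCLM3 alone.
HSPA1B followed it, with 34.98, 35.8 and 36.5 FPKM in LX2 with HCCLM3, against 82.5, 83.01 and 83.7 FPKM in LX2 alone (-1.24, adjusted p = 1.94e-06). In HCCLM3 its 3 values were 209.7, 218 and 211 FPKM in HCCLM3 with LX2, against 233, 236 and 222 FPKM in HCCLM3 alone (-0.28, adjusted p = 0.0198). That HCCLM3 call was lost without HCCLM3 alone replicate 1 (adjusted p = 0.0533), HCCLM3 with LX2 replicate 1 (0.0654) or HCCLM3 with LX2 replicate 3 (0.0848). Summed over both genes, the counts came to 201, 204 and 209.6 CPM in LX2 with HCCLM3 and to 522, 515 and 516 CPM in LX2 alone. The same sum was 1345, 1414 and 1337 CPM in HCCLM3 with LX2 and 1548, 1560.4 and 1487 CPM in HCCLM3 alone. The difference between the lines' changes was 1.07 for HSPA1A (adjusted p = 1.29e-06) and 0.93 for HSPA1B (adjusted p = 3.9e-06).

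HSPH1 (chr13:31134973-31162388, minus strand) and HSPA4 (chr5:133052013-133106449, plus strand) belong to the HSP110 branch, which acts as nucleotide exchange factors for HSP70. HSPH1 stood at 8.702, 9.27 and 8.17 FPKM in HCCLM3 with LX2, against 14.2, 17.6 and 15.9 FPKM in HCCLM3 alone, a change of -1.03 ± 0.0928 (SE, edgeR adjusted p = 0.00117). LX2 libraries gave 20.7, 20.6 and 20.7 FPKM in LX2 with HCCLM3, against 51.1, 51.1 and 51.6 FPKM in LX2 alone, a change of -1.34 ± 0.0214 (SE, edgeR adjusted p = 4.3e-07), and the 3 libraries of each LX2 group lay within 1 FPKM of each other. Both lines thus had HSPH1 lower with non-overlapping libraries, by 2.04-fold in HCCLM3 and 2.53-fold in LX2. The changes differed by 0.28 (95% interval 0.075 to 0.49, adjusted p = 0.0557), which does not pass the threshold. It did pass with DESeq2 size factors (adjusted p = 0.0422), library totals (0.46, adjusted p = 0.00882) or the DESeq2 test (0.0171), and without HCCLM3 alone replicate 2 (0.00745) or HCCLM3 with LX2 replicate 3 (0.0431). HSPA4 stood at 37.8, 37.3 and 39.1 FPKM in HCCLM3 with LX2, against 63.8, 61.9 and 62.6 FPKM in HCCLM3 alone, a change of -0.89 ± 0.0634 (SE, edgeR adjusted p = 0.000637). For LX2 the levels were 59.7, 61.8 and 61.8 FPKM in LX2 with HCCLM3, against 69.7, 69.9 and 71.4 FPKM in LX2 alone, a change of -0.23 (adjusted p = 0.000988). The fall of HSPA4 was the larger in HCCLM3, by -0.69 (adjusted p = 3.89e-05).

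HSPA9 (chr5:138553756-138575416, minus strand), the HSP70 of the mitochondrial matrix, moved in opposite directions. It fell in HCCLM3, to 50.9, 48.4 and 50.7 FPKM in HCCLM3 with LX2, against 67.4, 67.99 and 63.6 FPKM in HCCLM3 alone (-0.57, adjusted p = 0.00263). It rose in LX2, to 135, 133 and 131 FPKM in LX2 with HCCLM3, against 122, 115 and 115 FPKM in LX2 alone (0.15, adjusted p = 0.00923). Between the lines the changes of HSPA9 differed by -0.76 (adjusted p = 4.91e-05). Within a library, the log2 ratio of HSPA9 to HSPA8 counts averaged 0.94 in LX2 with HCCLM3 and -0.55 in LX2 alone, and -1.51 in HCCLM3 with LX2 and -1.72 in HCCLM3 alone. Each ratio gave an exact two-sided permutation p of 0.1, the smallest that 3 against 3 libraries can give.

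HSPA2 (chr14:64535905-64546173, plus strand), an HSP70 best known from the testis, was scarce. It had 80, 122 and 85 counts in LX2 with HCCLM3 and 452, 457 and 450 counts in LX2 alone, or 0.204 ± 0.0456 and 1.03 ± 0.0411 FPKM (SD, n = 3 each). That fall of -2.35 ± 0.1799 (SE, edgeR adjusted p = 0.000197) was the largest of any member in either line. HCCLM3 had 115, 102 and 84 counts with LX2 and 55, 87 and 98 counts alone, with overlapping libraries and a change of 0.29 (95% interval -0.48 to 1.05, adjusted p = 0.577). HSPA6, a strictly heat-inducible HSP70, has the 3-unit letters before its start. It had 103, 109 and 67 counts in HCCLM3 with LX2 and 109, 159 and 130 in HCCLM3 alone. In LX2 it had 90, 54 and 66 counts with HCCLM3 and 67, 61 and 32 alone. No HSPA6 library passed 1 FPKM, and neither change was called (-0.54 with adjusted p = 0.219, and 0.29 with adjusted p = 0.606). HSPA6 shares a run of 310 bases with HSPA7, and its counts are uncertain for that reason.

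**Figure D3:**
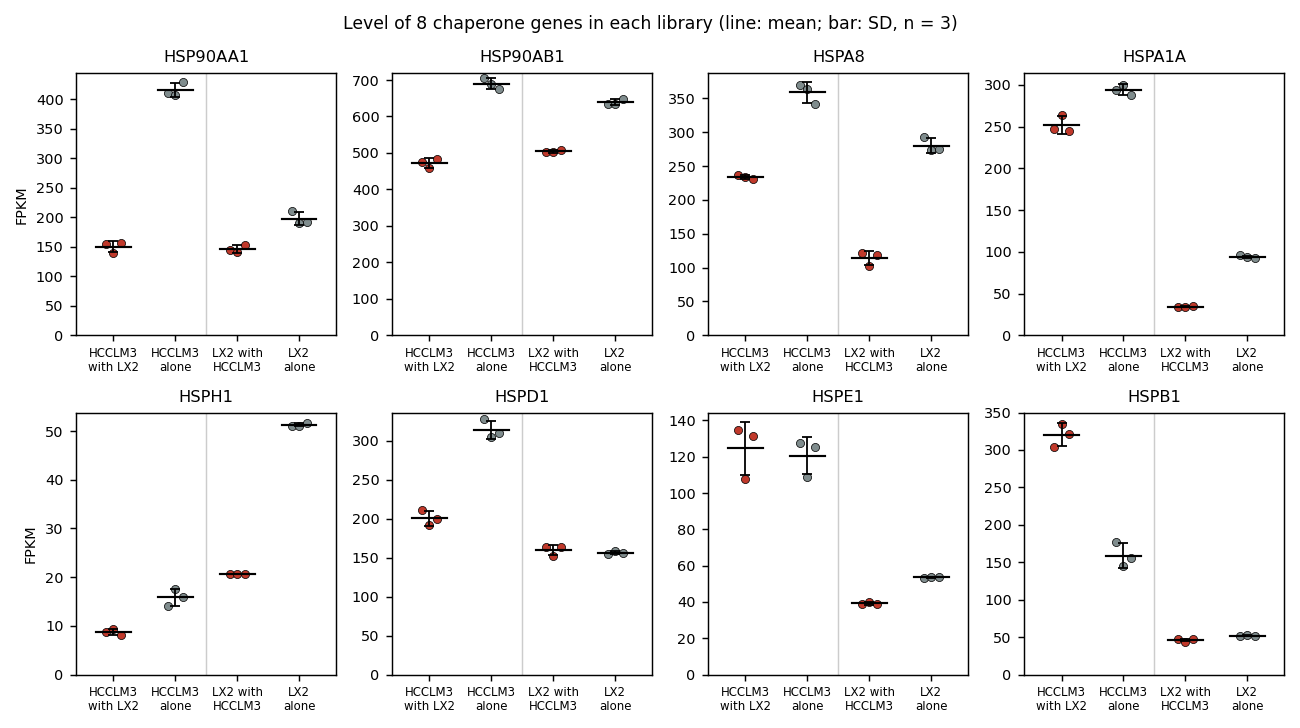
FPKM of 8 genes in each library of the 4 groups, with the co-cultured group of each line on the left. Points are libraries, lines means and bars SD (n = 3). HSP90AA1, HSP90AB1, HSPA8, HSPA1A and HSPH1 stand lower in co-culture in both lines, HSPD1 stands lower in HCCLM3 with LX2, HSPE1 lower in LX2 with HCCLM3, and HSPB1 higher in HCCLM3 with LX2.

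In the HSP90 class of 10 genes, 6 fell and 4 did not pass in HCCLM3, and 5 fell and 5 did not pass in LX2. The medians were -0.33 in HCCLM3 and -0.29 in LX2. HSP90AA1 (chr14:102080742-102139699, minus strand), the stress-inducible cytosolic HSP90, showed the largest fall of any member in HCCLM3. It stood at 155, 139 and 156 FPKM in HCCLM3 with LX2, against 411, 407 and 429.8 FPKM in HCCLM3 alone. The change was -1.63 ± 0.0754 (SE, edgeR adjusted p = 0.000187), or 3.104-fold lower, and the groups lay far apart. LX2 showed 145, 141 and 153 FPKM in LX2 with HCCLM3, against 211, 189.8 and 193 FPKM in LX2 alone, a change of -0.47 ± 0.05005 (SE, edgeR adjusted p = 0.00083). The difference between the changes was -1.2 (adjusted p = 9.72e-06). The 3-unit letters shown above for HSP90AA1 lie before the downstream one of its RefSeq starts, and the other start, at the 5′ end that the deposited tables give for the gene, had no 2-unit or 3-unit match. WDR20 overlaps its exons on the other strand over 197 bases, and whether counting used the strand is not given.

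HSP90AB1 (chr6:44246166-44253888, plus strand), the constitutive cytosolic HSP90, had the highest mean FPKM of the 35 genes in all 4 groups. It stood at 477, 458 and 482 FPKM in HCCLM3 with LX2, against 706, 689.8 and 675 FPKM in HCCLM3 alone, a change of -0.71 ± 0.0636 (SE, edgeR adjusted p = 0.00112). Across LX2 libraries it measured 502, 502 and 508 FPKM in LX2 with HCCLM3, against 634, 635 and 648 FPKM in LX2 alone, a change of -0.37 (adjusted p = 1.49e-05). All co-cultured libraries were below all those alone in both lines, and the changes differed by -0.37 (adjusted p = 0.00199). The balance of the pair shifted in HCCLM3: HSP90AA1 counts were 0.557, 0.520 and 0.555 times those of HSP90AB1 with LX2, and 0.995, 1.01 and 1.09 times alone. On the log2 scale this is -0.88 ± 0.055 with LX2 and 0.043 ± 0.070 alone (SD, n = 3 each; exact permutation p = 0.1). In LX2 the log2 ratio was -1.01 ± 0.051 with HCCLM3 and -0.92 ± 0.094 alone (exact permutation p = 0.3), and the libraries overlapped.

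Among the co-chaperones, FKBP4 (chr12:2794970-2805423, plus strand), a prolyl isomerase of steroid receptor complexes, fell in both lines. It stood at 53.9, 50.6 and 53.9 FPKM in HCCLM3 with LX2, against 74.7, 67.6 and 66.6 FPKM in HCCLM3 alone (-0.57, adjusted p = 0.00523). In LX2 it stood at 44.3, 45.6 and 45.9 FPKM in LX2 with HCCLM3, against 53.7, 51.6 and 52.2 FPKM in LX2 alone (-0.24, adjusted p = 0.00136). The fall was larger in HCCLM3 by -0.35 (adjusted p = 0.0187), a call lost with library totals (-0.18, adjusted p = 0.13). STIP1, which bridges HSP70 and HSP90, averaged 75.7 ± 1.48 FPKM in HCCLM3 with LX2 and 86.9 ± 2.23 FPKM in HCCLM3 alone (-0.37, adjusted p = 0.00899). In LX2 it averaged 62.4 ± 1.33 FPKM with HCCLM3 and 81.98 ± 6.25 FPKM alone (-0.42, adjusted p = 0.0019). The changes of STIP1 differed by 0.026 (95% interval -0.16 to 0.21).

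BAG3 (chr10:119651380-119677819, plus strand), an HSP70 exchange factor that works with HSPB8 in selective autophagy, fell in HCCLM3. It stood at 29.6, 28.6 and 29.3 FPKM in HCCLM3 with LX2, against 35.2, 33.3 and 33.8 FPKM in HCCLM3 alone (-0.39, adjusted p = 0.0109). The LX2 values were 17.1, 16.1 and 17.8 FPKM in LX2 with HCCLM3, against 16.2, 14.8 and 15.9 FPKM in LX2 alone, and that change did not pass (0.092, adjusted p = 0.293). Its difference between the lines passed, at -0.51 (adjusted p = 0.00218). AHSA1, which stimulates the HSP90 ATPase, fell in LX2 (-0.34, adjusted p = 0.00167) and had a change of -0.26 in HCCLM3 (adjusted p = 0.14). ST13, an HSP70 cofactor, fell in HCCLM3 (-0.29, adjusted p = 0.019), a call lost without HCCLM3 with LX2 replicate 1 (0.0678) or replicate 3 (0.0649). Its change in LX2 was -0.14 (adjusted p = 0.118), and it was called without LX2 with HCCLM3 replicate 3 (-0.21, adjusted p = 0.007).

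CHORDC1, PTGES3 and CDC37 passed in neither line. PTGES3, the p23 co-chaperone, had counts of 50019, 53164 and 51294 in HCCLM3 with LX2 and 38373, 68154 and 61590 in HCCLM3 alone, where replicate 1 stood apart. Without that library the HCCLM3 change was called, at -0.39 (adjusted p = 0.0147), against -0.16 (adjusted p = 0.64) with it. In LX2, PTGES3 had counts of 7400, 9032 and 12542 with HCCLM3 and 11927, 10962 and 12030 alone, a change of -0.38 (adjusted p = 0.111) that was called with DESeq2 (adjusted p = 0.044) and, at -0.59 (adjusted p = 0.00345), without LX2 with HCCLM3 replicate 3. CDC37, the adaptor that brings kinases to HSP90, had a change of 0.076 in HCCLM3 (95% interval -0.11 to 0.26) and -0.17 in LX2 (95% interval -0.45 to 0.12). CHORDC1 has 3 overlapping matches of the 3-unit letters before its start. Its change was 0.095 in HCCLM3 (95% interval -0.19 to 0.38) and -0.043 in LX2 (95% interval -0.17 to 0.086).

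The 3 small HSPs did not share a direction. HSPB1 (chr7:76302673-76304292, plus strand), known as HSP27, was the single member that rose in HCCLM3. It stood at 304, 335 and 322 FPKM in HCCLM3 with LX2, against 177, 144 and 156 FPKM in HCCLM3 alone, which is 1.79-fold higher after TMM scaling, a change of 0.84 ± 0.0959 (SE, edgeR adjusted p = 0.00239). In LX2 it fell slightly, at 46.8, 43.96 and 47.4 FPKM in LX2 with HCCLM3, against 51.99, 52.96 and 51.1 FPKM in LX2 alone (-0.20, adjusted p = 0.0109). Libraries did not overlap in either line, and the difference between the changes was 1.02 (adjusted p = 7.67e-05). HSPB1 had the second highest mean FPKM of the 35 genes in HCCLM3 with LX2.

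HSPB8 (chr12:119171555-119224855, plus strand), the partner of BAG3, rose in LX2. It stood at 8.804, 9.27 and 9.54 FPKM in LX2 with HCCLM3, against 4.06, 3.68 and 5.54 FPKM in LX2 alone, or 2.04-fold higher, a change of 1.03 ± 0.153 (SE, edgeR adjusted p = 0.00328). In HCCLM3 it stood at 8.32, 8.405 and 14.5 FPKM in HCCLM3 with LX2, against 11.8, 11.9 and 12.2 FPKM in HCCLM3 alone, a change of -0.37 that did not pass (adjusted p = 0.282). HCCLM3 with LX2 replicate 3 lay above every HCCLM3 library alone, the other two below, and without it the fall was called at -0.69 (adjusted p = 0.0143). The difference between the lines was -1.42 (adjusted p = 0.00607). As a within-library log2 ratio of counts, HSPB1 to HSPB8 was 3.85 ± 0.457 in HCCLM3 with LX2 and 2.59 ± 0.163 in HCCLM3 alone. The same ratio was 1.18 ± 0.0836 in LX2 with HCCLM3 and 2.43 ± 0.332 in LX2 alone (exact permutation p = 0.1 in each line, the smallest possible). CRYAB, the alpha-B crystallin, had 82, 55 and 92 counts in HCCLM3 with LX2 and 36, 25 and 56 in HCCLM3 alone, and its change of 0.92 did not pass (95% interval -0.12 to 1.96, adjusted p = 0.183). In LX2 it had 7, 22 and 34 counts with HCCLM3 and 14, 11 and 37 alone, and its exons overlap those of HSPB2 on the other strand over 626 bases.

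Of the 5 HSP40 genes, 3 fell and 2 did not pass in HCCLM3 (median -0.34), and 2 fell and 3 did not pass in LX2 (median -0.099). DNAJA1 (chr9:33025273-33039907, plus strand), a J domain partner of cytosolic HSP70, stood at 199, 172 and 191 FPKM in HCCLM3 with LX2, against 252, 252 and 258 FPKM in HCCLM3 alone (-0.60, adjusted p = 0.00374). LX2 libraries gave 74.9, 65.5 and 66.3 FPKM in LX2 with HCCLM3, against 127, 115 and 122 FPKM in LX2 alone (-0.85, adjusted p = 0.000166). Both falls had non-overlapping libraries, and their difference was 0.22 (95% interval -0.014 to 0.45, adjusted p = 0.178), which was called with library totals (0.39, adjusted p = 0.0154).
DNAJB1 (chr19:14514769-14529308, minus strand), the classical stress-inducible HSP40, stood at 67.8, 85.7 and 81.1 FPKM in HCCLM3 with LX2, against 95.9, 92.8 and 93.8 FPKM in HCCLM3 alone (-0.44, adjusted p = 0.0177). For LX2 the levels were 26.8, 27.5 and 27.6 FPKM in LX2 with HCCLM3, against 37.8, 38.7 and 36.2 FPKM in LX2 alone (-0.49, adjusted p = 0.000193). The HCCLM3 call of DNAJB1 was lost without HCCLM3 alone replicate 1 (adjusted p = 0.0501) or HCCLM3 with LX2 replicate 3 (0.0540), and the changes of the lines differed by 0.023 (95% interval -0.20 to 0.24).
DNAJA2 (chr16:46955362-46973674, minus strand) is a close relative of DNAJA1. It stood at 24.03, 22.3 and 23.6 FPKM in HCCLM3 with LX2, against 27.04, 25.9 and 25.7 FPKM in HCCLM3 alone (-0.34, adjusted p = 0.0209). LX2 showed 25.1, 26.7 and 27.1 FPKM in LX2 with HCCLM3, against 27.2, 27.7 and 27.8 FPKM in LX2 alone (-0.10, adjusted p = 0.11). The HCCLM3 fall of DNAJA2 lost its call without HCCLM3 alone replicate 1 (0.0609) or 3 (0.0522), and without HCCLM3 with LX2 replicate 2 (0.0583) or 3 (0.0724). The difference between the lines was -0.27 (adjusted p = 0.0441), a call lost in 9 of the 12 fits that left out 1 library. DNAJB4 and DNAJB6 passed in neither line, with changes of 0.12 and 0.072 in HCCLM3 and 0.015 and -0.10 in LX2.

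The chaperonins moved differently in the lines. In HCCLM3, 6 of 7 fell and 1 did not pass, with a median of -0.70. In LX2, 4 fell and 3 did not pass, with a median of -0.19. HSPD1 (chr2:197486584-197500274, minus strand), the mitochondrial HSP60, stood at 211, 191 and 199 FPKM in HCCLM3 with LX2, against 327, 305 and 310.3 FPKM in HCCLM3 alone. Its change was -0.81 ± 0.0756 (SE, edgeR adjusted p = 0.00122). Across LX2 libraries it measured 163, 152 and 163 FPKM in LX2 with HCCLM3, against 155, 159 and 155 FPKM in LX2 alone, with overlapping libraries, a change of 0.0015 and a 95% interval of -0.076 to 0.079. The difference between the lines was -0.85 (adjusted p = 5.14e-05).

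HSPE1 (chr2:197500140-197503382, plus strand), the HSP10 lid of the HSP60 chamber, lies head to head with HSPD1 and overlaps its exons on the other strand over 281 bases. It did the reverse, with a call in LX2 and none in HCCLM3. HSPE1 stood at 39.1, 40.2 and 38.7 FPKM in LX2 with HCCLM3, against 53.2, 53.6 and 53.98 FPKM in LX2 alone (-0.47, adjusted p = 0.000137). In HCCLM3 it stood at 135, 108 and 131 FPKM in HCCLM3 with LX2, against 128, 109 and 125 FPKM in HCCLM3 alone (-0.12, 95% interval -0.40 to 0.17, adjusted p = 0.527). The changes of HSPE1 differed by 0.33 (adjusted p = 0.12), short of the threshold, and that difference was called with library totals (0.50, adjusted p = 0.0152) and without HCCLM3 with LX2 replicate 2 (0.43, adjusted p = 0.0144). HSPD1 counts were 3.54, 4.02 and 3.43 times those of HSPE1 in HCCLM3 with LX2, and 5.79, 6.34 and 5.59 times in HCCLM3 alone. They were 9.46, 8.53 and 9.54 times in LX2 with HCCLM3, and 6.58, 6.70 and 6.51 times in LX2 alone. The ratio of the partners was thus lower in HCCLM3 with LX2 and higher in LX2 with HCCLM3, with no overlap in either line (exact permutation p = 0.1 each, the smallest possible). HSPE1 has 26 and HSPD1 17 named pseudogenes in GENCODE release 29, which could take up some of their reads. The same holds for HSPA8 with 17 and ST13 with 16, and 15 of the 35 members have at least 1. Only pseudogenes named by the full gene symbol, P and a number were counted. HSP90AA1 and HSP90AB1 had 0 by that rule, which misses pseudogenes named otherwise, so a 0 does not show that a gene has none.

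The other 5 chaperonin genes encode subunits of the cytosolic ring TRiC (CCT), which folds actin and tubulin. All 5 fell in HCCLM3. TCP1 (chr6:159778498-159789703, minus strand) stood at 55.4, 47.6 and 46.3 FPKM in HCCLM3 with LX2, against 71.9, 64.6 and 81.6 FPKM in HCCLM3 alone (-0.71, adjusted p = 0.00764). In LX2 it stood at 38.5, 32.9 and 37.6 FPKM in LX2 with HCCLM3, against 38.3, 32.97 and 40.7 FPKM in LX2 alone (-0.067, 95% interval -0.29 to 0.15, adjusted p = 0.632), and the lines' changes differed by -0.67 (adjusted p = 0.0122). TCP1 overlaps exons of ACAT2 on the other strand over 397 bases.
CCT2 (chr12:69585426-69601570, plus strand) stood at 65.6, 59.9 and 69.8 FPKM in HCCLM3 with LX2, against 107, 102 and 103 FPKM in HCCLM3 alone (-0.84, adjusted p = 0.00146). The LX2 values were 45.5, 46.8 and 45.3 FPKM in LX2 with HCCLM3, against 53.5, 54.5 and 54.05 FPKM in LX2 alone (-0.26, adjusted p = 0.00065). Both falls of CCT2 were called, and that of HCCLM3 was larger by -0.60 (adjusted p = 0.000782). CCT5 (chr5:10249929-10266389, plus strand) stood at 53.2, 47.95 and 52.9 FPKM in HCCLM3 with LX2, against 77.3, 71.3 and 74.1 FPKM in HCCLM3 alone (-0.70, adjusted p = 0.00239). LX2 libraries gave 180.5, 159 and 178 FPKM in LX2 with HCCLM3, against 185, 185 and 184 FPKM in LX2 alone (-0.13, adjusted p = 0.0799), short of the threshold. Without LX2 with HCCLM3 replicate 2 that change was smaller and called (-0.077, adjusted p = 0.0378). The difference between the lines for CCT5 was -0.60 (adjusted p = 0.00127). CCT5 overlaps exons of AC012640.4 on the other strand over 1757 bases. Of the 35 members, 12 share exonic bases with a gene on the other strand and 7 with one on the same strand. Among the latter, HSPA1B shares 920 bases with AL671762.1.
CCT4 (chr2:61868085-61888671, minus strand) stood at 159, 143 and 149 FPKM in HCCLM3 with LX2, against 197, 210.3 and 193 FPKM in HCCLM3 alone (-0.57, adjusted p = 0.00373). For LX2 the levels were 130.4, 129.7 and 131 FPKM in LX2 with HCCLM3, against 145, 144 and 146 FPKM in LX2 alone (-0.19, adjusted p = 0.000837), and the difference was -0.42 (adjusted p = 0.00353). CCT3 averaged 269 ± 10.2 FPKM in HCCLM3 with LX2 and 330.4 ± 26.03 FPKM in HCCLM3 alone (-0.47, adjusted p = 0.0125). In LX2 it averaged 78.3 ± 0.468 FPKM with HCCLM3 and 90.8 ± 3.82 FPKM alone (-0.24, adjusted p = 0.00286), and the difference did not pass (-0.25, adjusted p = 0.105). Subunits of one ring thus had called differences between the lines in 4 of 5 cases, each with the larger fall in HCCLM3.

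HSF1 and HSF2, the transcription factors of the heat shock response, were modest in level. HSF1, the main stress-responsive factor, stood at 15.8, 18.8 and 16.2 FPKM in HCCLM3 with LX2, against 23.2, 19.9 and 19.04 FPKM in HCCLM3 alone (-0.46, adjusted p = 0.0283). That call was lost without HCCLM3 alone replicate 1 (0.0573) or 2 (0.0536) and without HCCLM3 with LX2 replicate 1 (0.0880) or 3 (0.0980), and HSF1 shares 139 exonic bases with DGAT1 on the other strand. LX2 showed 8.97, 7.23 and 7.42 FPKM in LX2 with HCCLM3, against 8.71, 8.04 and 8.42 FPKM in LX2 alone, with overlapping libraries (-0.12, adjusted p = 0.363). Without LX2 with HCCLM3 replicate 1 that change was called, at -0.22 (adjusted p = 0.0429). HSF2 (chr6:122399551-122433119, plus strand) fell in LX2, at 3.34, 3.19 and 3.46 FPKM in LX2 with HCCLM3, against 3.92, 4.74 and 5.01 FPKM in LX2 alone (-0.48, adjusted p = 0.0178). That fall lost its call without LX2 with HCCLM3 replicate 1 (0.0558) or 2 (0.0614) and without LX2 alone replicate 2 (0.0558) or 3 (0.0549). In HCCLM3 it stood at 2.72, 2.53 and 2.58 FPKM in HCCLM3 with LX2, against 1.87, 2.19 and 2.42 FPKM in HCCLM3 alone (0.11, adjusted p = 0.626). The difference of 0.56 for HSF2 (adjusted p = 0.0495) was lost in 10 of the 12 fits that left out 1 library.

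Set side by side, 14 genes fell in both lines: HSPA1A, HSPA1B, HSPA4, HSPA8, HSPH1, HSP90AA1, HSP90AB1, STIP1, FKBP4, DNAJA1, DNAJB1, CCT2, CCT3 and CCT4. The size of the fall still differed between the lines in 9 of the 14. By line, 11.6% of all tested genes were called lower in HCCLM3 and 16.6% in LX2. The shares of all genes with joint calls are not given here, so the joint counts of this paragraph have no background beside them. A further 7 were called lower in HCCLM3 without a call in LX2, and in 5 of these (BAG3, DNAJA2, HSPD1, CCT5 and TCP1) the difference between the lines was itself called. HSPA2, AHSA1, HSPE1 and HSF2 were called lower in LX2 without a call in HCCLM3, and for HSPA2 and HSF2 the difference was called. HSPB8 was called higher in LX2 without a call in HCCLM3, and the difference was called. HSPB1 and HSPA9 were called in opposite directions. HSPA6, CHORDC1, PTGES3, CDC37, CRYAB, DNAJB4 and DNAJB6 were called in neither line.

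The test of the difference itself, the co-culture change of HCCLM3 less that of LX2, called 6 members higher and 13 lower, where 21.2% of all 21511 tested genes were called, 9.65% as higher and 11.5% as lower. The members' median difference was 0.023, against 0.0030 for all genes. By class, 4 HSP70 genes were higher (HSPA1A, HSPA1B, HSPA2 and HSPA8) and 2 lower (HSPA4 and HSPA9). Of the HSP90 class 4 were lower (HSP90AA1, HSP90AB1, FKBP4 and BAG3) and none higher, and of the chaperonins 5 were lower and none higher. BAG3, placed in the HSP90 class here, is an HSP70 exchange factor. A positive value here means a less negative or more positive change in HCCLM3. HSPA1A, HSPA1B and HSPA8, with the larger fall in LX2, and the called HSP90 class and chaperonin genes, all with the more negative change in HCCLM3, therefore stand on opposite sides of the line of equal change.

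**Figure D4:**
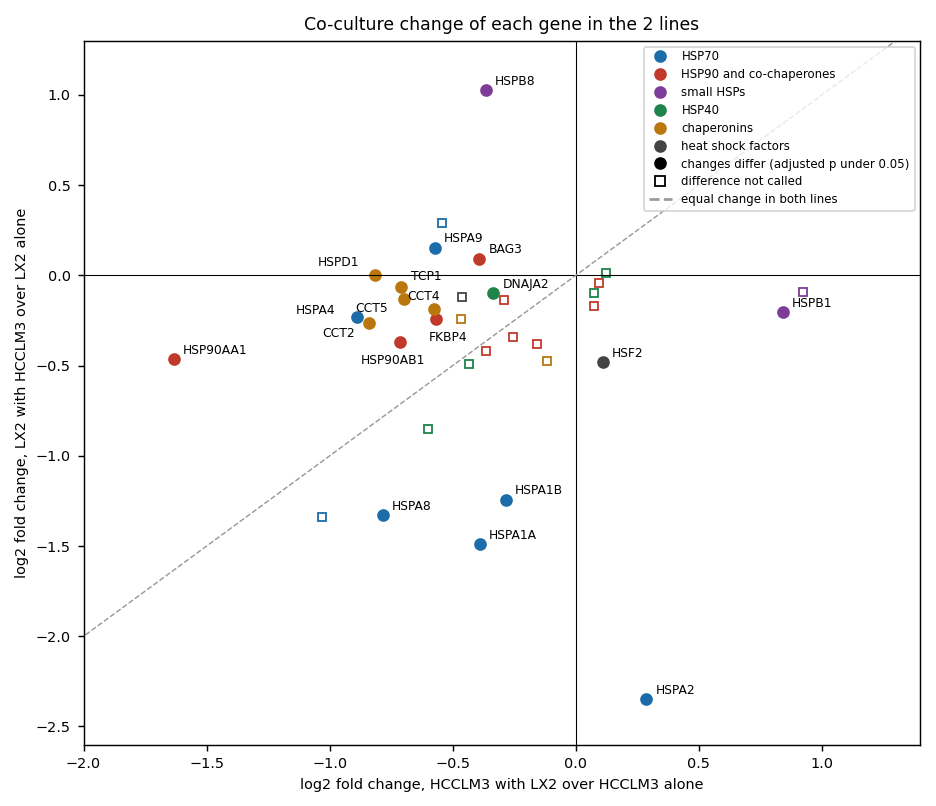
Log2 fold change of each gene in HCCLM3 (horizontal axis) against that in LX2 (vertical axis), co-culture over alone. Filled, named points are the 19 genes whose changes differed between the lines at an adjusted p under 0.05, open squares the other 16, and the dashed line marks equal change. HSPA1A, HSPA1B and HSPA8 lie below it, and HSP90AA1, HSPD1 and the TRiC subunits lie above it.

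Genes with the 3-unit heat shock letters before a start did not move as one. In HCCLM3, 4 of the 7 fell (HSPA8, HSP90AA1, HSP90AB1 and HSPD1) and 3 did not pass (HSPA6, CHORDC1 and DNAJB6), with a median of -0.71. Of the 24 with a promoter and no such match, 15 fell, 1 rose and 8 did not pass, with a median of -0.38. In LX2, 3 of the 7 fell and 4 did not pass (median -0.099), against 15 lower, 2 higher and 7 not passing among the 24 (median -0.25). HSPA1A, HSPA1B, HSPH1 and DNAJB1, which are known heat-inducible genes, were among the 24, and the lack of a match in this window does not tell whether a gene answers to heat shock factors.

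Related genes outside the 35 are given by their log2 changes, co-culture over alone, from the same fits, and their counts stand against the shares of all genes called given above. Of 23 other HSP70, HSP40, small HSP and exchange factor genes tested, 8 fell and none rose in HCCLM3. Those with the smallest p were DNAJC2, a ribosome-bound J protein, with -1.01 (adjusted p = 0.000547) and 9.61 ± 0.412 FPKM in co-culture and 17.3 ± 0.121 FPKM alone, and HSPA4L, a relative of HSPA4, with -1.3 (adjusted p = 0.00103) and 1.45 ± 0.129 FPKM in co-culture and 3.19 ± 0.358 FPKM alone (SD, n = 3 each). In LX2, 3 of the 23 rose and 7 fell. HSPB6, a small HSP, rose, at 1.53 (adjusted p = 0.015) from a low level, with 0.592 ± 0.197 FPKM in co-culture and 0.198 ± 0.0382 FPKM alone, and HSPBP1, an HSP70 cofactor, at 0.18 (adjusted p = 0.0471). The falls with the smallest p were those of DNAJC5, at -0.33 (adjusted p = 0.000493), and DNAJC9, at -0.30 (adjusted p = 0.000847).

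Of 18 other HSP90 cofactors, 9 fell and none rose in HCCLM3, and 4 fell and 2 rose in LX2. TOMM34, which escorts precursors to mitochondria, fell in both lines, at -0.65 (adjusted p = 0.0022) in HCCLM3 and -0.37 (adjusted p = 0.00152) in LX2. NUDC fell in HCCLM3, at -0.58 (adjusted p = 0.00512), and FKBP8 fell in LX2, at -0.36 (adjusted p = 0.00123). CDC37L1 and RUVBL2 rose in LX2, at 0.37 (adjusted p = 0.0305) and 0.10 (adjusted p = 0.0485). Of 9 other TRiC and prefoldin subunits, 4 fell and 1 rose in HCCLM3, and 1 fell and none rose in LX2. CCT6A and CCT7 fell in HCCLM3, at -0.54 (adjusted p = 0.00367) and -0.66 (adjusted p = 0.00378), PFDN6 rose there, at 0.39 (adjusted p = 0.0376), and PFDN5 fell in LX2, at -0.22 (adjusted p = 0.00831). Across all tested genes 10.1% were called higher and 11.6% lower in HCCLM3, and 15.4% higher and 16.6% lower in LX2. The median over these 9 was -0.010 in HCCLM3, against -0.70 for the 7 chaperonins described above. Because the 9 join TRiC with prefoldin subunits, that median does not describe the TRiC subunits alone.

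Among 11 other mitochondrial chaperones and proteases, 4 fell and none rose in HCCLM3, including the protease unfoldase CLPX at -0.66 (adjusted p = 0.00229) and the mitochondrial HSP90 TRAP1 at -0.55 (adjusted p = 0.00382). In LX2, 3 fell and 1 rose: LONP1, the matrix protease, rose, at 0.24 (adjusted p = 0.0148), and HTRA2 and CLPB fell, at -0.25 (adjusted p = 0.0154) and -0.24 (adjusted p = 0.0214). Of 9 other heat-inducible genes and regulators of heat shock factors, 2 rose and 2 fell in HCCLM3. HSF4 rose at 0.99 (adjusted p = 0.012) and the collagen chaperone SERPINH1 at 0.40 (adjusted p = 0.0466), while ZFAND2A fell, at -0.78 (adjusted p = 0.0156). In LX2, 3 rose and 4 fell, with haem oxygenase HMOX1 at 1.3 (adjusted p = 0.00011) and 12.2 ± 0.264 FPKM in co-culture and 4.87 ± 0.481 FPKM alone, and RGS2 at 1.1 (adjusted p = 0.000671). HSBP1, which binds HSF1, and UBB fell there, at -0.29 (adjusted p = 0.000664) and -0.24 (adjusted p = 0.00161).

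Of 31 proteasome subunits, the protein-degrading counterpart of the chaperones, 16 fell and none rose in HCCLM3 (median -0.34). In LX2, 6 fell and 6 rose (median -0.087), close to the shares of all genes called in each direction there. PSMD1 was among the falls in both lines, with -0.88 (adjusted p = 0.000736) in HCCLM3 and -0.34 (adjusted p = 0.000465) in LX2. PSMD14 fell in HCCLM3, at -0.74 (adjusted p = 0.00155), PSMB2 fell in LX2, at -0.27 (adjusted p = 0.00206), and PSMC3 and PSMD4 rose in LX2, at 0.15 (adjusted p = 0.00496) and 0.29 (adjusted p = 0.0063). As with the members, these HCCLM3 counts stand beside the blood, leukocyte and keratin shifts given above, whose part was not tested.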

How the data were processed

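Per the labels' protocols, poly(A) RNA was sequenced from both ends. The submitters' processing notes list the tools HISAT2 2.0, StringTie 1.3.0 and Bowtie 0.12.2 and the mouse build mm8, but the gene identifiers are human and 24 of the 35 members had the same start or end in GENCODE release 29, so positions are read as GRCh38. Whether counting used the strand was not given in the sources here. Each line has 1 table, in which, per the file headers, raw counts and FPKM values of every gene stand as deposited, and a count of 0 was read as an FPKM of 0. FPKM sums differed between the tables, so levels were not compared across lines.

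Members and gene lists were chosen with earlier results of these data known. Counts were fitted with edgeR 4.0.16 (R 4.3.3; filterByExpr with minimum count 10 and total 15, TMM, quasi-likelihood test), 1 fit per line and 1 over 12 libraries for the difference, with Benjamini-Hochberg adjustment over all tested genes. Intervals are 95%. All members are named. Library values are given for members whose changes differ between lines, for calls of at least 0.58 (log2), and for the principal chaperones, and up to 2 genes per direction are named from each related list (1 is not reported here). Alternatives were size factors of DESeq2, library totals, no filter, DESeq2 1.42.0, limma 3.58.1 on log2(FPKM + 1) and log2(FPKM + 0.1), the replicate number as a block, and leaving out each library. The procedure was tested on simulated data. Replicates differed by more than counting noise. Python 3.11.15 and SciPy 1.17.1 gave the permutation tests.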

Additional observations from a re-analysis of the deposited data

Results flagged for a closer look

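The change in co-culture differed between HCCLM3 and LX2 for 19 of the 35 genes by the test of the difference itself (edgeR adjusted p under 0.05, HCCLM3 minus LX2, log2). Among the HSP70 genes it was 1.07 for HSPA1A, 0.93 for HSPA1B, 2.61 for HSPA2, 0.52 for HSPA8, -0.69 for HSPA4 and -0.76 for HSPA9. In the HSP90 class it was -1.2 for HSP90AA1, -0.37 for HSP90AB1, -0.35 for FKBP4 and -0.51 for BAG3. Among the small HSPs it was 1.02 for HSPB1 and -1.42 for HSPB8, and among the HSP40 genes -0.27 for DNAJA2. The chaperonins gave -0.85 for HSPD1, -0.60 for CCT2, -0.42 for CCT4, -0.60 for CCT5 and -0.67 for TCP1, and the heat shock factors 0.56 for HSF2.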

How the results depend on the processing

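No called member took the other sign under any alternative tried. Uncalled changes did for 4 members in HCCLM3 (PTGES3, HSPE1, CHORDC1 and DNAJB6), 4 in LX2 (HSPD1, CRYAB, DNAJB4 and DNAJB6) and 5 for the difference (CHORDC1, PTGES3, STIP1, AHSA1 and DNAJB1). Over all genes the balance of calls in HCCLM3 turned, with 46.6% of calls higher under TMM, 74.1% under library totals and 73.7% and 73.9% in limma on log2(FPKM + 1) and log2(FPKM + 0.1). For the difference the share called higher was 45.5% under TMM and 65.2% under library totals. In HCCLM3, 3924 genes were called, and leaving out 1 library in turn gave 1918 to 2928, with 2574 without HCCLM3 alone replicate 3 and 2264, 2522 and 1918 without HCCLM3 with LX2 replicates 1, 2 and 3, fits that rest on fewer libraries. The members called there stayed at 19 to 22 of 35. In LX2 those fits called 4934 to 5209 genes and 20 to 23 members, and for the difference 3602 to 4471 genes and 17 to 19 members. The other alternatives called 16 to 23 members in HCCLM3, 21 to 22 in LX2 and 17 to 20 for the difference, with the fewest in HCCLM3 under library totals. With limma on log2(FPKM + 1), 2 members were higher and 17 lower in HCCLM3, the added one being CDC37, and 3104 genes were higher and 1106 lower. For the difference, library totals gave 3000 genes higher and 1598 lower, and 9 members higher and 11 lower.

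Of 455 member values in HCCLM3, 33 lost and 3 gained a call. In LX2, of 455, 4 lost and 5 gained one, and for the difference, of 595, 25 lost and 10 gained one. DNAJA2 and HSF2 lost most often for the difference. Same-numbered libraries of the groups correlated at 0.0171, 0.0452 and 0.0225 in HCCLM3 and at -0.039, 0.0115 and -0.0408 in LX2, so the numbers were not taken to pair the samples, although each HCCLM3 library correlated best with its own number. With the number as a replicate block, 3315 genes and 22 members were called in HCCLM3, 4795 and 21 in LX2, and 4471 and 20 for the difference. Under that block HSF1 lost its call in HCCLM3 (adjusted p = 0.0545) and HSF2 its call for the difference (0.0878), while the differences of HSPH1 (0.0499) and HSPE1 (0.0173) gained one. HSPA6, CRYAB and HSPA2 in HCCLM3 had too few counts to narrow their intervals.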
